A study of Homo sapiens with 8 samples.

Results

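The cluster of miR-183, miR-96 and miR-182 consists of 3 microRNA (miRNA) hairpins that lie next to each other on chromosome 7 at 7q32. Its members here are the mature miRNAs of these hairpins named for the cluster, hsa-miR-183-5p, hsa-miR-183-3p, hsa-miR-96-5p and hsa-miR-182-5p, found by name as 4 of the 3112 rows of the count table, of which 1482 are known miRNAs and the others are miRNAs predicted by the authors. All 4 passed the filter on low counts, as did 895 of all rows and 463 of the known miRNAs. The remaining arms of the hairpins, hsa-miR-182-3p and hsa-miR-96-3p, are also in the table, and their values are given beside those of the members.

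Small RNA was sequenced from 786O, an established cell line of human clear cell renal cell carcinoma (ccRCC), to look for miRNAs whose level changes when the circular RNA circSOD2 is knocked down. The 4 negative control (NC) libraries came from cells given a control plasmid, and the 4 circSOD2-sh libraries from cells given an shRNA plasmid against circSOD2, a circle of joined exons of the SOD2 gene. Per the labels, Lipofectamine 3000 carried the plasmids into the cells and RNA was taken after 48 h, whereas the study's methods describe lentivirus and puromycin selection for its knockdown cells. Neither source says which shRNA was used or that the libraries of a group came from separate cultures, so p-values measure the spread between these libraries, which may be technical. Libraries of small RNA do not show circSOD2 itself, and its knockdown was not checked here.

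A miRNA hairpin is cut into a short duplex, 1 strand of which, the 5p or the 3p arm, is usually kept by Argonaute and guides it to messenger RNAs that pair with the seed, bases 2 to 8 of the miRNA. miR-183, miR-96 and miR-182 are transcribed together as 1 precursor, are best known from the hair cells and photoreceptors of sensory organs, and are raised in many carcinomas. FOXO1, a transcription factor that restrains proliferation, is among their best known shared targets.

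The mature sequences are shown because the members differ from each other in the seed, the part that selects targets. They are written 5′ to 3′ with the seed in capitals, and come from RefSeq on GRCh38.p14, in which 1298 of the 1482 known names of the table were found.
hsa-miR-183-5p: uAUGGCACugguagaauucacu
hsa-miR-96-5p: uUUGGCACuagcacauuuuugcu
hsa-miR-182-5p: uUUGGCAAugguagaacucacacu
hsa-miR-183-3p: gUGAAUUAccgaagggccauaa

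The seeds of the 3 5p arms differed at 1 or 2 bases, with positions counted from the 5′ end of the miRNA named first. Between miR-96-5p and miR-182-5p the seed difference was C8A, between miR-96-5p and miR-183-5p it was U2A, and between miR-182-5p and miR-183-5p the seed differences were U2A and A8C. Aligned from the 5′ end without gaps, miR-182-5p and miR-183-5p were the closest pair, identical at 18 of 22 bases, against 13 of 22 for miR-96-5p and miR-183-5p and 12 of 23 for miR-96-5p and miR-182-5p. The seed of miR-183-3p, the opposite arm of the miR-183 hairpin, was unlike all 3. Among the known miRNAs matched to RefSeq, only hsa-miR-1271-5p shared the seed of a member, that of miR-96-5p, and it had between 0 and 7 counts per library and was not tested.
hsa-miR-1271-5p: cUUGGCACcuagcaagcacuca

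All 3 hairpins are on the minus strand of GRCh38.p14, with MIR183 at chr7:129774905-129775014, MIR96 at chr7:129774692-129774769 and MIR182 at chr7:129770383-129770492. MIR183 and MIR96 are separated by 135 bases, MIR96 and MIR182 by 4199 bases, and the whole spans 4632 bases. No other gene of the RefSeq annotation overlaps this stretch, which is therefore intergenic, with NRF1 at a distance of 13306 bases on the MIR182 side and UBE2H at 55717 bases on the MIR183 side.

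Each NC library held 6386872 to 9245044 counts and each circSOD2-sh library 3743860 to 4208276. Predicted miRNAs took 58.1 to 63.8% of the NC counts, 1 of them alone 54.3 to 59.1%, against 3.54 to 4.93% of the circSOD2-sh counts. Known miRNAs had 2344870 to 3573638 counts per NC library, against 3604691 to 4059249 per circSOD2-sh library. The levels below are CPM, a miRNA's counts scaled to a common library size, after scaling by trimmed mean of M values (TMM), whose factors were 0.697 to 0.733 for NC libraries, against 1.33 to 1.48 for circSOD2-sh. This scaling decides the direction in which the cluster moves between the groups, as described further on. By miRNAs of other cell types, NC replicate 4 and circSOD2-sh replicate 2 stood apart from the rest, and the values without them are given with those markers. In total RNA of a culture, fewer cells that carry a miRNA and less of it per cell cannot be told apart.

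The cluster was well expressed in these renal carcinoma cells, almost wholly from its 5p arms, and all 4 members were lower in circSOD2-sh on the TMM scale, though higher there when scaled to library totals. All arms of the 3 hairpins together took 1.82% ± 0.124 of the counts of known miRNAs in NC, against 1.11% ± 0.0894 in circSOD2-sh (SD, n = 4 each). Scaled to the counts of known miRNAs, the median known miRNA was itself lower, at a log2 fold change of -0.48. With edgeR's quasi-likelihood test and Benjamini-Hochberg adjustment over all rows tested, 4 of 4 members were called lower (adjusted p under 0.05), while 32.4% of all miRNAs tested were called lower, 33.3% higher and 65.7% in either direction. Of the known miRNAs tested, 28.5% were called lower, 27% higher and 55.5% in either direction. The differences were modest, from -0.25 to -0.49 on the log2 scale. Among the known miRNAs tested, the fold changes of the members lay between percentiles 24.6 and 41.3, so that many known miRNAs were lower by more.

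miR-96-5p, the middle hairpin's main product, was the member with the most counts in NC and had the largest fall of the 4 on the TMM scale. Its raw counts in NC replicates 1 to 4 were 23174, 25732, 26438 and 15526, and in circSOD2-sh replicates 1 to 4 they were 12106, 18981, 15880 and 13891. Its normalized CPM was 3555, 3961, 4508 and 3490 in NC and 2058, 3351, 3187 and 2471 in circSOD2-sh. The highest circSOD2-sh library, replicate 2, lay just under the lowest NC library, replicate 4, so the groups did not overlap, as was the case for 60.3% of all miRNAs tested and 52.3% of the known ones. The mean fell from 3878 ± 469 (SD, n = 4) to 2767 ± 608 (SD, n = 4) normalized CPM, a log2 fold change of -0.49 (SE 0.16, 95% interval -0.84 to -0.14, edgeR adjusted p = 0.0201).

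miR-183-5p, the main product of the first hairpin in the direction of transcription, overlapped between the groups. Its raw counts were 18318, 19888, 19355 and 10867 in NC and 12456, 12534, 14061 and 11976 in circSOD2-sh. Its normalized CPM was 2810, 3062, 3301 and 2442 in NC and 2117, 2213, 2822 and 2130 in circSOD2-sh. circSOD2-sh replicate 3 stood above the other 3 libraries of its group and above both the lowest and the second lowest NC library. The NC mean was 2904 ± 367 and the circSOD2-sh mean 2320 ± 337 (SD, n = 4 each), which gave a log2 fold change of -0.32 (SE 0.12, 95% interval -0.60 to -0.05, edgeR adjusted p = 0.0397). Without circSOD2-sh replicate 3 the log2 fold change was -0.59 (edgeR adjusted p = 0.00303), and without NC replicate 3 it was -0.31 and no longer called (edgeR adjusted p = 0.0609).

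miR-182-5p, the product of the last hairpin, had the smallest fold change of the 4 members on the TMM scale. Its raw counts were 18037, 20472, 19623 and 12392 in NC and 13578, 14400, 13924 and 13860 in circSOD2-sh. Its normalized CPM was 2767, 3152, 3346 and 2785 in NC and 2308, 2542, 2794 and 2465 in circSOD2-sh. The groups overlapped through circSOD2-sh replicate 3 alone, which was slightly above NC replicates 1 and 4. The NC mean was 3012 ± 285 and the circSOD2-sh mean 2527 ± 203 (SD, n = 4 each), which gave a log2 fold change of -0.25 (SE 0.09, 95% interval -0.45 to -0.05, edgeR adjusted p = 0.0305), and without circSOD2-sh replicate 3 it was -0.46 (edgeR adjusted p = 0.00642).

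miR-183-3p, the strand of the miR-183 duplex that is usually discarded, was 91.3 to 165 times rarer in counts than its partner and still had at least 76 counts in every library. Its raw counts were 156, 149, 152 and 119 in NC and 124, 76, 92 and 113 in circSOD2-sh. Its normalized CPM was 23.9, 22.9, 25.9 and 26.7 in NC and 21.1, 13.4, 18.5 and 20.1 in circSOD2-sh. Every NC library was above every circSOD2-sh library, of which replicate 2 was the lowest. The NC mean was 24.9 ± 1.75 and the circSOD2-sh mean 18.3 ± 3.41 (SD, n = 4 each), which gave a log2 fold change of -0.44 (SE 0.16, 95% interval -0.81 to -0.08, edgeR adjusted p = 0.0361). Without NC replicate 3 the adjusted p of edgeR was 0.0502, just past the threshold.

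**Figure D1:**
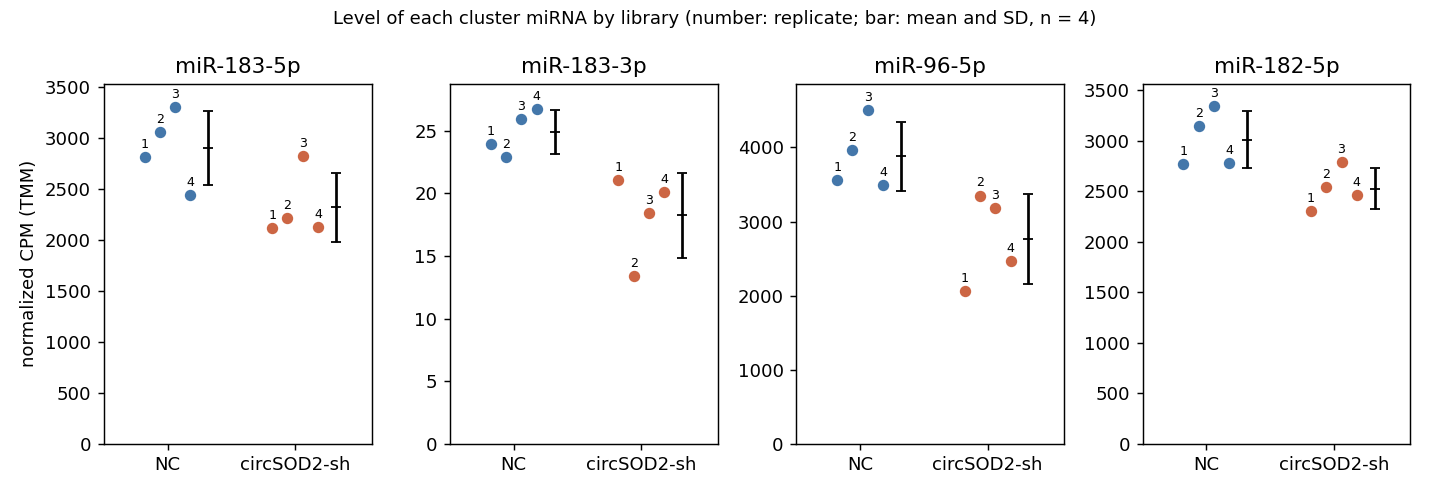
Normalized CPM (TMM, axis from 0) of each of the 4 members in each NC (blue) and circSOD2-sh (orange) library, with the replicate number beside each point and bars for the mean and SD (n = 4). Most circSOD2-sh points are lower with this scaling, which library totals turn round, and the groups do not overlap for miR-183-3p and miR-96-5p, whereas circSOD2-sh replicate 3 reaches into the NC range for miR-183-5p (2822 normalized CPM) and miR-182-5p (2794 normalized CPM).

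The 3p arms of the other hairpins were also far below their 5p arms. miR-182-3p had 174, 158, 144 and 147 counts in NC and 156, 95, 129 and 152 in circSOD2-sh, with means of 27.2 ± 4.07 and 24.1 ± 4.88 normalized CPM (SD, n = 4 each). Its log2 fold change was -0.17 (SE 0.19, 95% interval -0.59 to 0.24, edgeR adjusted p = 0.429), an interval that holds the values of all 4 members. Without circSOD2-sh replicate 1, 3 or 4 it was -0.34, -0.35 or -0.34, without NC replicates 1, 2 and 3 between -0.29 and -0.23, without NC replicate 4 it was -0.12, and without NC replicate 4 and circSOD2-sh replicate 2 together it was -0.03, with no call in any of these edgeR fits. With totals of known miRNAs it was called (-0.52, edgeR adjusted p = 0.0496). miR-96-3p had 5 to 8 counts per NC library, against 6 to 11 in circSOD2-sh, and did not pass the filter.

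The order of the levels was compared per base of mature sequence, the mature forms being 21 to 24 bases long. A read covers a whole mature miRNA, so counts do not grow with its length, and dividing by length can change a close order. Reads of different miRNAs are also captured unequally when adapters are ligated. Per base, miR-96-5p stood first with a mean of 169 ± 20.4 normalized CPM in NC, followed by miR-183-5p with 132 ± 16.7 and miR-182-5p with 126 ± 11.9 (SD, n = 4 each). miR-96-5p was above both others in 4 of 4 NC libraries. miR-183-5p and miR-182-5p, neighbours in this order, did not differ beyond their spread, and per base miR-183-5p was the higher of the pair in 3 of 4 NC and 2 of 4 circSOD2-sh libraries. By normalized CPM, not divided by length, miR-182-5p had the higher mean of the pair, 3012 against 2904 in NC and 2527 against 2320 in circSOD2-sh.

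In circSOD2-sh the 5p arms were closer together. Per base they had 120 ± 26.4 for miR-96-5p, 105 ± 15.3 for miR-183-5p and 105 ± 8.45 for miR-182-5p (SD, n = 4 each, normalized CPM), and miR-96-5p was the highest of the 3 in 3 of 4 libraries, replicate 1 being the exception. The 3p arms were at 1.13 ± 0.0798 for miR-183-3p and 1.29 ± 0.194 for miR-182-3p in NC, and at 0.830 ± 0.155 and 1.15 ± 0.232 in circSOD2-sh. Ranked by counts among the 1482 known miRNAs, miR-96-5p held ranks 23 to 26 across NC libraries and 34 to 42 across circSOD2-sh libraries, miR-183-5p ranks 29 to 34 against 36 to 42, and miR-182-5p ranks 29 to 30 against 38 to 41. A rank among known miRNAs does not use a library total but moves with every miRNA that passes the member. For these 3 arms the ranges of the groups did not overlap. Those of miR-183-3p did, with ranks 206 to 213 in NC and 210 to 296 in circSOD2-sh. Other known miRNAs whose ranks were apart were not counted.

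**Figure D2:**
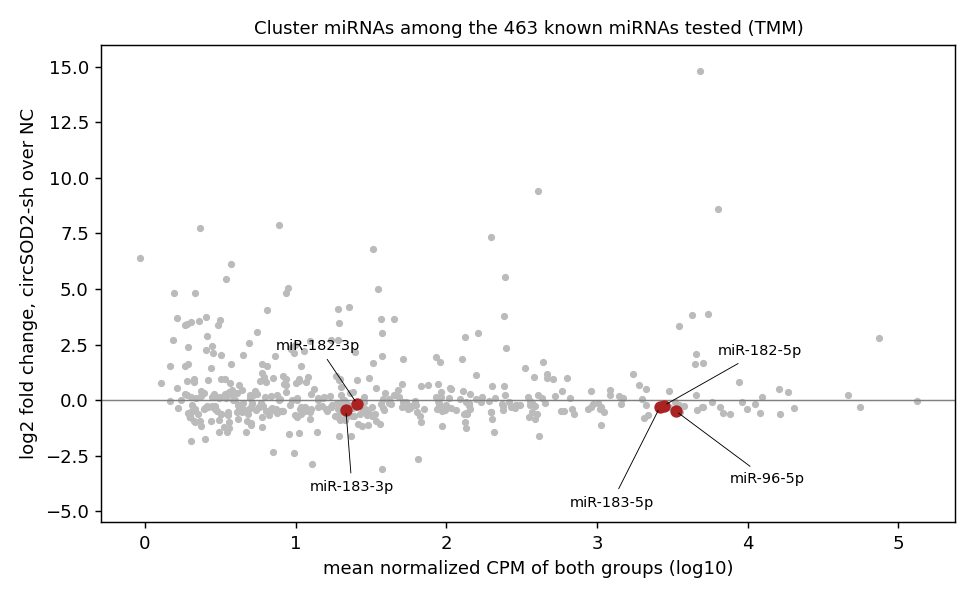
Log2 fold change of circSOD2-sh over NC against the mean normalized CPM of both groups (log10 axis) for the 463 known miRNAs tested (grey), with the 4 members and miR-182-3p in red. The 5p arms lie among the abundant miRNAs and all 5 red points lie slightly below 0 with TMM, between -0.17 and -0.49 on the log2 scale, though above 0 with library totals.

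Ratios between members within a library are free of any scaling, and were used to ask whether the 3 hairpins moved by the same amount. The log2 ratio of miR-182-5p to miR-96-5p was -0.36, -0.33, -0.43 and -0.33 in NC and 0.17, -0.40, -0.19 and -0.0032 in circSOD2-sh. The circSOD2-sh libraries spread far more widely than the NC libraries, with replicate 2 inside the NC range and the other 3 above it. The mean rose from -0.36 ± 0.05 to -0.11 ± 0.24 (SD, n = 4 each), a difference of 0.26 that did not pass the exact two-sided permutation test (p = 0.114, adjusted over 3 ratios 0.343). The smallest p that 4 against 4 libraries can give is 0.0286. Without circSOD2-sh replicate 2 the difference was 0.35, and without circSOD2-sh replicate 1 it was 0.16.

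Neither of the other two ratios passed the test. The log2 ratio of miR-183-5p to miR-96-5p spanned -0.51 to -0.34 in NC, against -0.60 to 0.04 in circSOD2-sh, with a difference of means of 0.18 (exact two-sided permutation p = 0.229, adjusted 0.343). Without circSOD2-sh replicate 2 this difference was 0.30, and without circSOD2-sh replicate 1 it was 0.09. The log2 ratio of miR-182-5p to miR-183-5p spanned -0.02 to 0.19 in NC, against -0.01 to 0.21 in circSOD2-sh, with a difference of 0.07 (exact two-sided permutation p = 0.343, adjusted 0.343). Without circSOD2-sh replicate 3 or NC replicate 4 it was 0.12, and without circSOD2-sh replicate 4 or NC replicate 1 it was 0.05. As shares of the cluster's counts, miR-96-5p held 39.4% ± 0.754 in NC and 35.9% ± 4.02 in circSOD2-sh, miR-182-5p 30.6% ± 0.835 and 33.2% ± 2.09, and miR-183-5p 29.5% ± 1.19 and 30.4% ± 2.37 (SD, n = 4 each), with overlapping groups for all 3.

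The arms of miR-183 did not move apart by an amount that these libraries could show. In NC there were 117, 133, 127 and 91.3 counts of miR-183-5p for each count of miR-183-3p, and 100, 165, 153 and 106 in circSOD2-sh. circSOD2-sh replicates 2 and 3 were above every NC library and the remaining 2 were inside the NC range. The log2 ratio of the arms was 6.86 ± 0.24 in NC and 6.99 ± 0.36 in circSOD2-sh (SD, n = 4 each), a difference of 0.14 (SE 0.21, 95% interval -0.34 to 0.61, limma adjusted p = 0.604), whereas 59% of the 117 known hairpins with both arms tested had a called difference. This difference rested on single libraries, being 0.25 without circSOD2-sh replicate 1, 0.23 without circSOD2-sh replicate 4, 0.02 without NC replicate 4 or circSOD2-sh replicate 2, and 0.05 without circSOD2-sh replicate 3.

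For miR-182 the difference in the arm ratio was -0.06 (SE 0.23, 95% interval -0.58 to 0.45, limma adjusted p = 0.821), from 6.80 ± 0.32 in NC to 6.73 ± 0.36 in circSOD2-sh (SD, n = 4 each). The miR-96 ratio was not tested because of its low 3p counts.

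**Figure D3:**
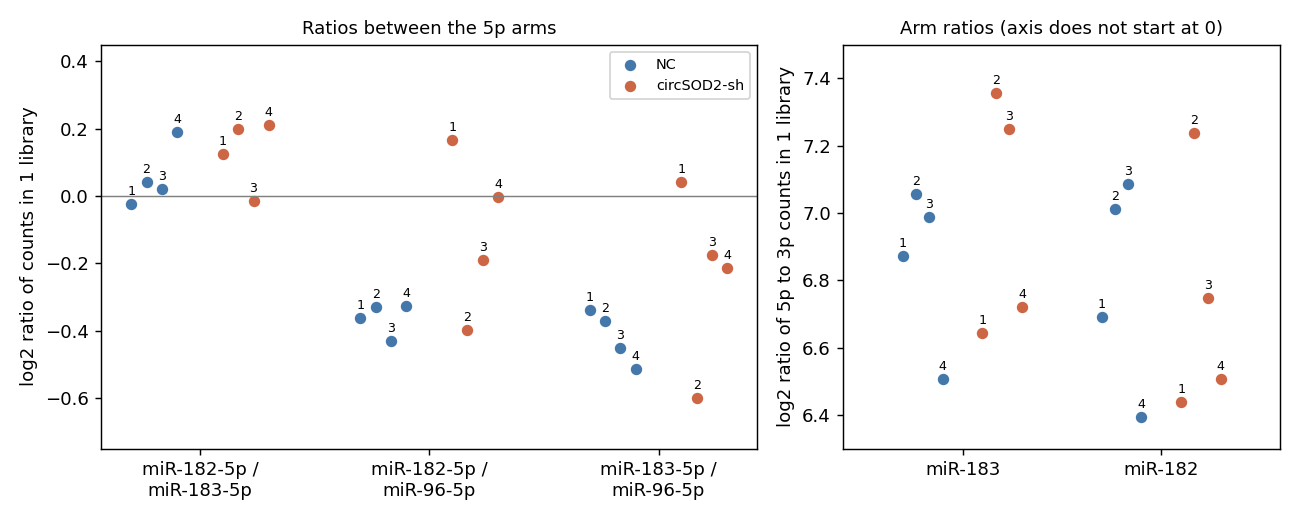
Left, log2 ratios of raw counts between the 5p arms in each library, and right, log2 ratio of 5p to 3p counts of miR-183 and miR-182 (axis not from 0), for NC (blue) and circSOD2-sh (orange) with replicate numbers. NC libraries lie close together for the ratios to miR-96-5p, while circSOD2-sh libraries spread from -0.40 to 0.17 for miR-182-5p and from -0.60 to 0.04 for miR-183-5p.

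Across the 8 libraries the 3 5p arms varied together, as a description of points that share library scaling and group. Pearson's r of log2(normalized CPM + 1) was 0.946 between miR-183-5p and miR-182-5p, 0.920 between miR-96-5p and miR-182-5p and 0.838 between miR-183-5p and miR-96-5p, and after the group means were taken out it was 0.892, 0.816 and 0.665. miR-183-3p followed the 5p arms less closely, with r from 0.295 to 0.494, and from -0.674 to -0.130 after the group means were taken out. The known miRNAs most like the sum of the 3 5p arms over the 8 libraries were miR-424-5p (r = 0.974), miR-185-5p (0.962), miR-450b-5p (0.958), miR-181d-5p (0.957) and miR-196b-3p (0.945). By deviations from the group means they were miR-4521 (r = 0.979), miR-7974 (0.965) and miR-30a-5p (0.956), which lay above NC in circSOD2-sh, with log2 fold changes of 0.63, 1.72 and 0.25.

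The direction of the cluster's change depended on what the libraries were scaled to. A share of the whole library is taken beside the 1 predicted miRNA that held 54.3 to 59.1% of each NC library and at most 0.105% of a circSOD2-sh library. In the CPM deposited by the authors, miR-182-5p had a mean of 2019 ± 230 in NC and 2990 ± 145 in circSOD2-sh, miR-183-5p 1947 ± 284 and 2742 ± 321, miR-96-5p 2600 ± 365 and 3257 ± 586, and miR-183-3p 16.6 ± 1.11 and 21.8 ± 4.78 (SD, n = 4 each). On that scale all 4 means were higher in circSOD2-sh, and the groups did not overlap for miR-183-5p and miR-182-5p, though the share of all miRNAs with groups apart was not counted there.

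Fitted in edgeR with library totals, the log2 fold changes were 0.64 for miR-183-5p (adjusted p = 0.00057), 0.53 for miR-183-3p (0.0203), 0.47 for miR-96-5p (0.0100) and 0.71 for miR-182-5p (4.1e-05). The median of all miRNAs tested was then 0.96, against -0.0021 with TMM, and the split of all calls moved from 50.7% higher to 79.5% higher. With library totals 771 of the 895 miRNAs tested were called, 613 higher and 158 lower, so a call higher was common. Relative to that median the members stood at -0.33, -0.43, -0.50 and -0.25, against -0.32, -0.44, -0.49 and -0.25 with TMM. A change of scaling moves nearly all fold changes alike, so a like distance from the median under both scalings is built in. The distance did depend on which miRNAs were fitted, and with TMM at a mean of at least 50 counts it was -0.09, -0.21, -0.26 and -0.02 in the same order.

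Scaled to the counts of known miRNAs alone, a choice added after the data were seen, the members were lower by more. In CPM over known counts, miR-96-5p had 7158 ± 540 in NC against 3997 ± 669 in circSOD2-sh, miR-182-5p 5564 ± 270 and 3675 ± 139, miR-183-5p 5361 ± 501 and 3369 ± 364, and miR-183-3p 46.1 ± 3.74 and 26.8 ± 6.17 (SD, n = 4 each). The groups of all 4 members were then apart, and the edgeR log2 fold changes were -0.84 for miR-96-5p (adjusted p = 0.000333), -0.78 for miR-183-3p (0.00407), -0.67 for miR-183-5p (0.000299) and -0.60 for miR-182-5p (1.38e-05). In that fit 328 of the 463 known miRNAs tested were called, 235 lower and 93 higher, so that 28.4% of calls were higher. The share of known miRNAs with groups apart on this scale was not counted. The median known miRNA was at -0.48, and relative to it the members stood at -0.36, -0.30, -0.19 and -0.12 in the same order. With TMM on known miRNAs alone, miR-96-5p (-0.44, edgeR adjusted p = 0.0221) and miR-182-5p (-0.20, 0.0271) were called, and miR-183-5p (-0.27, 0.0646) and miR-183-3p (-0.39, 0.0857) were not.

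**Figure D4:**
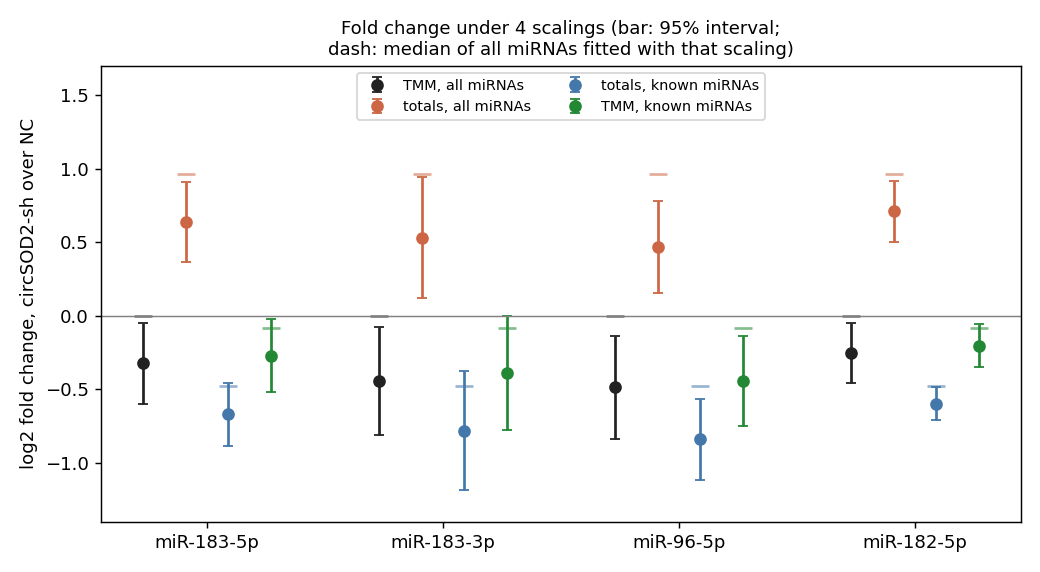
Log2 fold change of circSOD2-sh over NC with its 95% interval for the 4 members in edgeR fits with 4 scalings (colours), beside the median of all miRNAs in the same fit (dash). Each member is below the dash of its fit, and the sign is positive only with library totals of all miRNAs, where the dash is at 0.96.

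Other hairpins of 7q32 were compared with the cluster as its neighbours. Of 6 arms of the MIR29A, MIR29B1, MIR335 and MIR129-1 hairpins in the table, 4 were tested, 1 was called lower and 0 higher by edgeR, the same as by DESeq2 and at an unadjusted p under 0.05, with a median log2 fold change of 0.01 beside -0.0021 over all miRNAs tested. miR-29a-3p, a miRNA that represses collagen genes, fell from 22804 ± 461 to 17849 ± 1107 normalized CPM (SD, n = 4 each, log2 fold change -0.35, edgeR adjusted p = 0.000696). miR-335-5p had 4 to 53 counts in NC and 4, 762, 24 and 12 in circSOD2-sh, with a log2 fold change of 3.46 (edgeR adjusted p = 0.0865). Without NC replicate 4 or without circSOD2-sh replicate 1, 1 arm of the list was called higher.

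miR-183 is one of the miRNAs repressed by ZEB1, a repressor of the epithelial state, together with the miR-200 family. Of 7 epithelial miRNAs linked to ZEB1, all tested, 4 were called lower and 1 higher by edgeR, and 5 lower and 1 higher by DESeq2, with a median log2 fold change of -0.30 beside -0.11 over the known miRNAs tested. miR-200b-3p fell from 4076 ± 285 to 3433 ± 162 normalized CPM (log2 fold change -0.25, edgeR adjusted p = 0.0126) and miR-200a-3p from 1015 ± 144 to 822 ± 52.2 (-0.30, 0.0277), both of the miR-200 family that keeps ZEB1 low (SD, n = 4 each). miR-429 of the same family had 366 ± 38.5 and 354 ± 30.6 (-0.05, edgeR adjusted p = 0.689). miR-205-5p rose from 4.16 ± 3.44 to 18.6 ± 0.718 normalized CPM (2.21, edgeR adjusted p = 0.00134). The other 2 called lower were the rare miR-200c-3p, with 55, 61, 71 and 145 counts in NC against 21 to 37 in circSOD2-sh (edgeR adjusted p = 0.0148), and miR-141-3p, with 37, 55, 47 and 113 against 6 to 19 (log2 fold change -2.35, edgeR adjusted p = 0.00348), named after their values were seen. NC replicate 4, which stood apart by markers of other cell types, was the highest library for both and for miR-200a-3p (1231 normalized CPM), and its part in these falls was not tested. Without it 4 were called lower and 1 higher. With library totals the list had 4 called higher and 1 lower, so its direction turned with the scaling as that of the cluster did.

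Of 6 other miRNAs known to target FOXO1, 3 were tested, and 1 was called lower and 0 higher by edgeR, also at an unadjusted p under 0.05, against 2 lower and 0 higher by DESeq2. Their median log2 fold change was -0.61, beside -0.11 over the known miRNAs tested, of which 28.5% were called lower. miR-27a-3p fell from 19736 ± 241 to 12901 ± 1160 normalized CPM (SD, n = 4 each, log2 fold change -0.61, edgeR adjusted p = 3.57e-05). miR-27b-3p had 9401 ± 280 and 8874 ± 257 (-0.08, edgeR adjusted p = 0.223), and miR-486-5p 27.8 ± 19.4 and 14.8 ± 3.76 (-0.89, 0.0768). Without NC replicate 2, or without any 1 of circSOD2-sh replicates 1, 3 and 4, 2 were called lower, and without circSOD2-sh replicate 2 all 3 were.

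A match to the seed of a member was looked for in circSOD2, since the study asked which miRNAs the circle could bind. The circle was built from 3 joined SOD2 exons of GENCODE release 29 on GRCh38, 462 bases across the junction, and its own strand was searched for the 7 bases that pair with each seed, GTGCCAT for miR-183-5p, TAATTCA for miR-183-3p, GTGCCAA for miR-96-5p and TTGCCAA for miR-182-5p. The motifs of miR-183-5p and miR-96-5p share their first 6 letters. None was found in the circle. Of 19469 stretches of 462 bases, 1 from the middle of the longest transcript of each protein-coding gene, 3.44%, 2.50%, 3.32% and 4.54% held the 4 motifs in that order.

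Markers of other cell types set NC replicate 4 and circSOD2-sh replicate 2 apart from the other libraries. Summed normalized CPM of 6 neural miRNAs was 492 to 577 in all libraries but circSOD2-sh replicate 2, which had 5269, with 18220 counts of miR-124-3p, a miRNA of neurons, against 5 to 15 elsewhere. The stromal pair miR-143-3p and miR-145-5p summed to 537 in NC replicate 4 and 219 in circSOD2-sh replicate 2, against 7.08 to 12.4 elsewhere. The list of the kidney tubule, the tissue of origin of ccRCC, summed to 376 to 1065 across NC libraries and 300.3 to 349 across those of circSOD2-sh. Most of this was miR-192-5p, with 501 ± 301 in NC and 274 ± 5.67 in circSOD2-sh (SD, n = 4 each). NC replicate 4 alone set the upper end of NC, with 1065 for the list and 953 for miR-192-5p. In the other NC libraries the list was at 376 to 399. miR-192-5p had 2116 to 2322 counts in those libraries, against 4238 in NC replicate 4. Of the same list, miR-204-5p was nearly absent from NC, with 1, 0, 0 and 4 counts, and had 9, 164, 7 and 7 in circSOD2-sh.

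The other marker lists were low. In summed normalized CPM, 4 leukocyte miRNAs were at 1.19 to 17.1 in NC and 2.13 to 14.7 in circSOD2-sh, 4 erythroid ones at 26.8 to 171 and 21.6 to 59.9, and 3 of striated muscle at 9.38 to 41.1 and 10.7 to 29.1. Of the leukocyte list, miR-142-5p had 71 counts in NC replicate 4 and 46 in circSOD2-sh replicate 2, against 4 to 15 elsewhere, and miR-150-5p had 36 in circSOD2-sh replicate 2 and at most 2 elsewhere. miR-223-3p and miR-142-3p had at most 3 counts in any library. In the edgeR fit the neural list had 2 of 6 called higher, miR-124-3p and miR-129-5p, for which DESeq2 gave no adjusted p, the kidney tubule list 1 of 3 lower (2 by DESeq2) and the striated muscle list 1 of 2 higher. Of the 1 leukocyte, 2 erythroid and 1 stromal miRNA tested, 0 were called by edgeR, 0 had an unadjusted p under 0.05, and DESeq2 called 1 erythroid miRNA lower.

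The numbers of these calls changed when single libraries were left out. Over the 8 fits with 1 library left out, the neural list had 2 to 4 called higher and the kidney tubule list 1 to 2 called lower. Without 1 circSOD2-sh library 969 or 970 miRNAs were tested, against 895 with all libraries. The neural list had 4 called higher without circSOD2-sh replicate 1, 3 or 4, and 2 called lower without circSOD2-sh replicate 2. The kidney tubule list had 1 called higher without any 1 of the circSOD2-sh libraries, and 2 called lower without NC replicate 1, 2 or 3 or circSOD2-sh replicate 2 or 3. Of the 8 fits with 1 library left out, the striated muscle list had 1 called higher only in those without NC replicate 2 or circSOD2-sh replicate 4, and the erythroid list had 1 called lower without NC replicate 2 or circSOD2-sh replicate 2.

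With NC replicate 4 and circSOD2-sh replicate 2 both left out, the 4 members were still called lower, at -0.48 for miR-183-5p, -0.38 for miR-183-3p, -0.75 for miR-96-5p and -0.40 for miR-182-5p (edgeR adjusted p = 0.0019, 0.0329, 0.000422 and 0.00272). Most miRNAs were called in that fit, 659 of 945 tested, with 350 lower and 309 higher. The fold changes of the 3 5p arms were further from 0 than with all libraries, by over 1.5 times for miR-96-5p and miR-182-5p. The median of all miRNAs tested was also lower, at -0.13 against -0.0021 with all libraries. Relative to the median, miR-183-5p stood at -0.35 (-0.32 with all libraries), miR-183-3p at -0.25 (-0.44), miR-96-5p at -0.62 (-0.49) and miR-182-5p at -0.27 (-0.25). The differences of the within-library log2 ratios were then 0.36 for miR-182-5p to miR-96-5p, 0.27 for miR-183-5p to miR-96-5p and 0.09 for miR-182-5p to miR-183-5p, and that of the miR-183 arms turned to -0.10. circSOD2-sh replicate 2 was also the library with the lowest miR-183-3p and miR-182-3p and the highest miR-96-5p of its group. The part of the other cell types' miRNAs in these values was not tested.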

How the data were processed

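The authors deposited counts of reads per mature miRNA without normalization and, apart from them, CPM computed by the authors over a library total larger than the listed counts. They also deposited a table of their comparison, with fold changes and p-values, which was not used. Their processing notes name FastQC 0.11.2, Trimmomatic 0.36, Bowtie 1.1.1 and GRCh38. The counting tool and the miRNA annotation are not given in the sources used here.

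Columns were matched to samples by name. The main fit used edgeR 4.0.16 in R 4.3.3 on the counts of all 8 libraries, with filterByExpr (minimum count 10), TMM, the quasi-likelihood test (prior count 0.125) and Benjamini-Hochberg adjustment over all 895 miRNAs tested. The TMM reference was circSOD2-sh replicate 4. Arm ratios were log2 of counts plus 0.5, tested with limma 3.58.1 over 117 known hairpins. Ratios between members were tested by exact two-sided permutation in R. Python 3.11.15 with pandas 2.3.3 and matplotlib 3.10.9 served for tables and plots. Alternatives were DESeq2 1.42.0, RLE factors, upper quartile, library totals, other TMM references, prior count 2, no filter, a minimum mean of 50 counts, limma on log2 of deposited CPM with 1 or 0.1 added, 1 count added in arm ratios, the replicate number as a block, and libraries left out. Log2 values with an added constant understate changes of low miRNAs.

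The members and lists were chosen with earlier results of these data known. All members are named. Other miRNAs named are the 5 and 3 most like the summed 5p arms by Pearson's r of levels and of deviations, and up to 4 of each list, those with the most counts. Lists were described by counts and medians, with no set test. The fits were tested on simulated data in which the most abundant miRNAs were left unchanged. That simulation therefore cannot show how the fits handle the abundant predicted miRNA of the NC libraries. No pair of libraries within a group agreed within sampling noise (chi-square over degrees of freedom 9.45 to 128). Total counts of 3743860 to 9245044 per library left only the 3p arms with few counts.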

Additional observations from a re-analysis of the deposited data

Results flagged for a closer look

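In 9 of 44 groups of 4 libraries, 1 library lay far from the other 3 (Dixon's test of the gap over the range), where chance gives about 1 in 20 groups, or 2.2. For the members, miR-183-5p in circSOD2-sh replicate 3 was at 2822 normalized CPM against 2117 to 2213 in the other 3 libraries of the group. miR-182-3p in circSOD2-sh replicate 2 was at 16.8 normalized CPM against 25.9 to 27.0.

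The other 7 were summed normalized CPM of marker lists, all in NC replicate 4 or circSOD2-sh replicate 2. In circSOD2-sh replicate 2 the neural list was at 5269 against 492 to 513, the leukocyte list at 14.7 against 2.13 to 3.21, and the stromal and smooth muscle list at 219 against 7.65 to 12.4. In NC replicate 4 the leukocyte list was at 17.1 against 1.19 to 2.0, the erythroid list at 171 against 26.8 to 42.6, the kidney tubule list at 1065 against 376 to 399, and the stromal and smooth muscle list at 537 against 7.08 to 8.36.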

How the results depend on the processing

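Scaling was the one choice that turned the direction of the members. With library totals the log2 fold changes of miR-183-5p, miR-183-3p, miR-96-5p, miR-182-5p and miR-182-3p were 0.64, 0.53, 0.47, 0.71 and 0.80, with upper-quartile scaling 0.51, 0.41, 0.34, 0.59 and 0.69, and with limma on log2 of the deposited CPM they were 0.50, 0.34, 0.32, 0.57 and 0.61 with 1 added and 0.50, 0.36, 0.32, 0.57 and 0.63 with 0.1 added. The median of all miRNAs tested moved to 0.96, 0.83, 0.72 and 0.82 in these fits. Calls of the same direction were lost for miR-183-5p at a mean of at least 50 counts (-0.29, edgeR adjusted p = 0.0754) and with TMM on known miRNAs (-0.27), for miR-183-3p without a filter (-0.47, 0.0946) and with TMM on known miRNAs (-0.39), and for miR-182-5p without a filter (-0.28, 0.0558) and at a mean of at least 50 counts (-0.22, 0.0668), and the cause was not tested. miR-96-5p lost its call in no fit in which it stayed lower. With DESeq2, RLE factors and each of the 7 other TMM references, all 4 members were called lower, as were 295, 308 and 296 to 340 of the 895 miRNAs.

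Leaving out 1 library at a time gave -0.59 to -0.31 for miR-183-5p, -0.64 to -0.42 for miR-183-3p, -0.72 to -0.45 for miR-96-5p and -0.46 to -0.25 for miR-182-5p, with calls lost only for miR-183-5p and miR-183-3p without NC replicate 3, and -0.35 to -0.12 for miR-182-3p with no call. The arm ratio of miR-183 was 0.02 to 0.25, and -0.10 without NC replicate 4 and circSOD2-sh replicate 2 together. The number of miRNAs called, 588 with 298 higher and 290 lower, was 246 (123 higher, 123 lower) with TMM on known miRNAs, 328 (93 higher) with totals of known miRNAs and 361 (149 higher) at a mean of at least 50 counts, where fewer were tested. The calls were 613 higher and 158 lower with library totals, 570 and 160 with upper-quartile scaling, 559 and 163 with 1 and 553 and 163 with 0.1 added to the CPM.

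Replicate numbers did not visibly pair the samples (correlations of same-numbered deviations 0.26, -0.10, 0.10 and -0.17, against -0.24 to 0.26 for other pairs). So few correlations cannot exclude a pairing. With the replicate block the members were at -0.33, -0.46, -0.51 and -0.25 (edgeR adjusted p = 0.00586, 0.0341, 0.00358 and 0.00543), no call of a member changed, and 574 miRNAs were called. The depth limited the 3p arms, miR-96-3p most of all.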
